A study of Mus musculus with 14 samples.

Results

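The genes described here are 10 transcriptional outputs of ERK signaling, chosen by name and taken from the 23284 genes listed in each expression table. They are the PEA3 transcription factors Etv4 and Etv5, the dual-specificity phosphatases Dusp4, Dusp5 and Dusp6, the Sprouty genes Spry1, Spry2 and Spry4, and the Spred genes Spred1 and Spred2. All 10 were found in both tables, and 9 of the 10 reached the 5 FPKM needed for testing, where FPKM is a fragment count corrected for exon length and for the size of the library. Spry4 stayed below that level in every library and is described by its reads.

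RNA-seq was performed on 14 libraries of EpH4 and EpRas cells. EpH4 is a mouse mammary gland epithelial cell line, and EpRas is its derivative transformed with H-Ras carrying the G12V change. Cells were cultured for 48 h with 1 ng/ml TGF-β (TGF-β3) or left untreated, with 2 libraries for each of the 4 untransfected groups. EpH4 cells received 10% serum and EpRas cells 4%, so the line and the serum cannot be told apart. EpRas cells were also transfected with a control siRNA (siNC), with siEtv4_1 plus siEtv5_1 (pair 1) or with siEtv4_2 plus siEtv5_2 (pair 2), each with and without the same TGF-β treatment, with 1 library per condition.

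In the classical ERK cascade, Ras activates Raf kinases, which activate MEK and then ERK. ERK activity raises the transcription of genes whose products act back on the cascade. Dusp6 dephosphorylates ERK in the cytoplasm, Dusp5 binds and inactivates ERK in the nucleus, and Dusp4 is a nuclear phosphatase of ERK and related kinases. Sprouty proteins damp signaling from receptor tyrosine kinases towards Ras, and Spred proteins recruit the Ras inhibitor neurofibromin to the membrane. Etv4 and Etv5 are ETS-family transcription factors that are often induced by FGF and ERK signaling, and they are used as readouts of it in developing epithelia such as the mammary gland.

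The sequence of siEtv5_2 shows how close the second Etv5 siRNA lies to Etv4, the other factor lowered in the same cells. It is given 5′ to 3′ with its target in the Etv5 transcript and the stretch of Etv4 transcript most like that target. Capitals mark nothing in these lines.
siEtv5_2: uuaaauuccaugccucggccagucc
Etv5 target: ggactggccgaggcatggaatttaa
Etv4, closest stretch: ggacaggccggggaatggagtttaa
The target lies at chr16:22392674-22392698 on the minus strand of mm10, in the coding part of exon 11 of 13 of Etv5, and was found in the annotated transcripts of 1 gene. Counted from 1 at the 5′ end of the target, with the Etv5 base first, the Etv4 stretch differs by T5A, A11G, C14A and A20G. It therefore has 4 mismatches over 25 bases, whereas the closest stretches of the Dusp, Spry1, Spry2 and Spred transcripts have 10 to 12.

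Upstream sequences are shown for Dusp6 and Spry1, because these genes lay on opposite sides of the control in the comparisons of lines and of siRNA pairs. The 250 bases before each start are from RefSeq on GRCm38, with capitals on matches to the ETS-type letters CGGAAG or AGGAAG on either strand.
Dusp6, chr10:99262981-99263230, plus strand: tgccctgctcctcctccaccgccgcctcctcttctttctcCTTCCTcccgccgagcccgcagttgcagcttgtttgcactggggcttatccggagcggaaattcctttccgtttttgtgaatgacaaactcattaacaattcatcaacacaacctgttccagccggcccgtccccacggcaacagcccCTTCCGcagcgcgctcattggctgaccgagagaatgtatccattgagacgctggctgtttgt
Spry1, chr3:37639697-37639946, plus strand: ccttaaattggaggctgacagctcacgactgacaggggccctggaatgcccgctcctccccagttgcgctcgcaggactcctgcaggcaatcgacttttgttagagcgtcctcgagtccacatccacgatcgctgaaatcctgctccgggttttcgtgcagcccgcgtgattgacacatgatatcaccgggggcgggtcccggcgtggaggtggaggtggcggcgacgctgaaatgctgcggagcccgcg
The Dusp6 window holds CGGAAG on the reverse strand starting 62 bases before the start, and AGGAAG on the reverse strand starting 210 bases before it. The Spry1 window holds neither. Upstream entries were found for 7 of 9 genes looked up (8 entries, 2 of them for Etv5), and none for Etv4 or Dusp4. CGGAAG was present in 3 of the 8 entries (Dusp6, Spred1 and Spred2), against 13.6% of 32851 upstream regions of the same length. AGGAAG was present in 3 of the 8 (Dusp5, Dusp6 and Spred2), against 29.5%. The AP1-type letters TGANTCA, which read the same on both strands, were present in 0 of the 8, against 6.75%. The Spred1 window ends before the annotated start of the gene, and the bases that follow it, like those after 1 of the Etv5 windows, were not found near the start of the gene's annotated transcripts. These matches describe letters in these windows only.

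Among the untransfected libraries, the depth relative to the first untreated EpH4 library ranged from 0.609 to 1.36, and that of the siRNA libraries relative to untreated siNC from 1 to 1.74. Of 10 mammary epithelial markers, 8 or 9 reached 5 FPKM in every group, with Krt19 at 0 in EpH4 cells and Krt5 at 0 in untransfected EpRas cells and in EpH4 cells with TGF-β. Their summed level was 3573 and 4146 FPKM in untreated EpH4 cells, 5568 and 5992 FPKM with TGF-β, between 2567 and 3395 FPKM in untreated EpRas cells and 1915 and 3552 FPKM in the TGF-β-treated EpRas libraries, which lay far apart. The summed level of 7 fibroblast markers came to 22.7 and 26.8 FPKM for EpH4 cells without TGF-β, 222 and 247 FPKM for those with it, and between 8.42 and 13.6 FPKM for untransfected EpRas cells, with Lum at 0 in every group. Immune markers summed to at most 7.13 FPKM and endothelial markers to at most 2.00 FPKM. Hras, whose row cannot separate the mouse gene from a transgene, had 101 and 103 FPKM in the untreated EpH4 libraries and 126 and 85.9 FPKM in the EpRas ones, values that overlapped (log2 difference 0.03, limma adjusted p = 0.936).

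Levels per exon length ranked Etv4 first or second of the 10 genes in all 4 groups and Spry4 last. In untreated EpH4 cells Spry1 stood above Etv4, whereas it was sixth in untreated EpRas cells and ninth in EpRas cells with TGF-β. Dusp5, Dusp6 and Dusp4 followed Etv4 in this order in both EpRas groups. The order of close neighbours was not firm, since the libraries of adjacent genes overlapped for 4 of 9 neighbouring pairs in untreated EpH4 cells, for 3 of 9 in EpH4 cells with TGF-β and for 4 of 9 in each EpRas group. In untreated EpRas cells these were Dusp6 and Dusp4, Dusp4 and Spred2, Spry2 and Etv5, and Etv5 and Spred1.

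**Figure D1:**
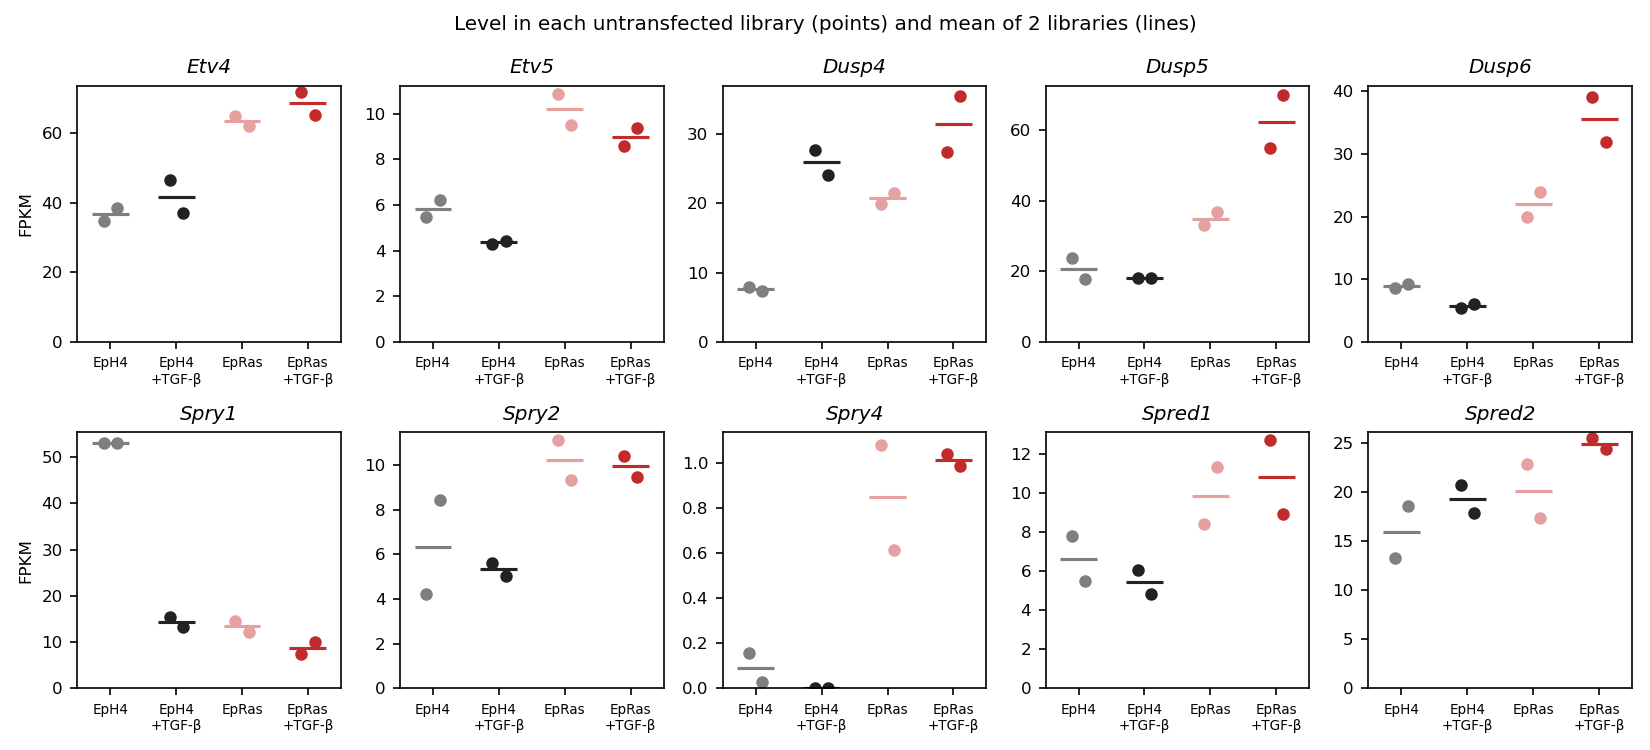
FPKM of each of the 10 genes in the 8 untransfected libraries (points, 2 per group), with the group mean as a line and a separate vertical axis from 0 for each gene. EpRas libraries lie above EpH4 libraries under both conditions for Etv4, Etv5, Dusp5, Dusp6, Spry2, Spry4 and Spred1, whereas Spry1 lies lower in EpRas cells.

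The first comparison asked how the ERK output genes differ between the Ras-transformed line and its parent without TGF-β. Of 9 genes tested, 5 were higher in EpRas cells (Etv4, Etv5, Dusp4, Dusp5 and Dusp6) and 1 was lower (Spry1) at a limma adjusted p under 0.05. Over all 9100 genes tested, 8.45% were higher and 9.11% were lower. The median log2 difference of the 9 genes was 0.71, against -0.00 for all genes tested, where a log2 difference is that of log2(FPKM + 1). In RNA from whole cultures, fewer expressing cells and less RNA per cell cannot be told apart.

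All 3 phosphatases were higher in EpRas cells. Dusp4 (chr8:34807297-34819894) had 7.96 and 7.39 FPKM in the untreated EpH4 libraries and 20.0 and 21.5 FPKM in the EpRas ones. Both EpRas libraries were well above both EpH4 libraries, with a ratio of means of 2.70 (log2 difference 1.32 ± 0.17 SE, adjusted p = 0.0028). Dusp6 (chr10:99263231-99267489) gave 8.66 and 9.24 FPKM in EpH4 cells against 19.9 and 24.0 FPKM in EpRas cells. The groups again did not overlap, and the ratio was 2.45 (log2 difference 1.20 ± 0.17 SE, adjusted p = 0.00407). Dusp5 (chr19:53529109-53542431) was at 23.7 and 17.8 FPKM in EpH4 cells and at 33.1 and 36.7 FPKM in EpRas cells, a smaller ratio of 1.68 (log2 difference 0.73 ± 0.19 SE, adjusted p = 0.0404). The authors' gene model of Dusp5 ends before the annotated gene end, so reads beyond it are not in these levels.

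Among the transcription factors, Etv4 had 34.9 and 38.5 FPKM in the EpH4 libraries and 64.8 and 62.2 FPKM in the EpRas libraries. Etv5 had 5.46 and 6.21 FPKM in the former and 10.9 and 9.50 FPKM in the latter. Their ratios of 1.73 and 1.75 were nearly the same, although Etv4 had the higher level per length in every library. Log2 differences were 0.78 for Etv4 (adjusted p = 0.0189) and 0.71 for Etv5 (adjusted p = 0.0182).

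The Sprouty and Spred genes did not follow one direction. Spry1 (chr3:37639947-37644598), a gene of the Sprouty family of signaling inhibitors, reached 53.0 and 53.1 FPKM in the EpH4 libraries but 14.5 and 12.3 FPKM in the EpRas libraries. It was thus 3.96-fold lower in EpRas cells (log2 difference -1.91 ± 0.18 SE, adjusted p = 0.000645), with no overlap. Spry2 (chr14:105891947-105896819) was at 4.24 and 8.46 FPKM in EpH4 cells and at 11.1 and 9.32 FPKM in EpRas cells. Its log2 difference of 0.67 (95% interval 0.03 to 1.30) did not pass the test, with an adjusted p of 0.137, and its EpH4 libraries lay far apart. Without the first untreated EpH4 library the difference was 0.24 (adjusted p = 0.49), and without the second it was 1.09 and passed (adjusted p = 0.028), the only 1 of 16 alternatives in which it did. Spred1 had a log2 difference of 0.51 (95% interval -0.07 to 1.09, adjusted p = 0.202) and Spred2 one of 0.33 (-0.17 to 0.82, adjusted p = 0.333), intervals that leave room for more than a 1.5-fold increase in each.

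Spry4 was the lowest of the 10 genes, and its difference between the lines rests on few reads. It had 4 and 1 reads in the untreated EpH4 libraries and 17 and 18 reads in the untreated EpRas libraries. Pooled over the libraries of a group and corrected for depth, the ratio was 9.46, with a 95% interval for counting error of 3.69 to 30.9, which includes the 3.96-fold difference of Spry1 in size. In EpH4 cells with TGF-β, Spry4 was listed at 0 in both libraries, against 23 and 17 reads in EpRas cells with TGF-β. Against a floor of 3 reads over the EpH4 group the ratio was 15.6, and with the counting error of the EpRas reads included, Spry4 was at least 12.2-fold higher (lower bound of the 95% interval). Even so, its highest level in an untransfected library was 1.08 FPKM.

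With TGF-β, the difference between the lines was again asked for the same genes. Both comparisons come from 1 fit over the 8 libraries and share its estimate of the spread, so they are not independent. Of 9 genes, 5 were higher in EpRas cells (Etv4, Etv5, Dusp5, Dusp6 and Spred1) and 1 was lower (Spry1), against 8.92% higher and 12.3% lower over all genes tested. Dusp4 was among those called without TGF-β and Spred1 among those called with it, but the change of the line difference itself did not pass the test for either (limma interaction, adjusted p = 0.159 and 0.755). The median log2 difference of the 9 genes was 0.79, against -0.01 for all genes tested.

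Dusp6 showed the largest difference of the 9. It had 5.36 and 6.11 FPKM in the EpH4 libraries with TGF-β against 39.1 and 32.0 FPKM in the EpRas libraries, a ratio of 6.20 (log2 difference 2.44 ± 0.17 SE, adjusted p = 0.000108). Dusp5 was at 18.1 and 18.0 FPKM and at 54.9 and 69.9 FPKM, a ratio of 3.46 (log2 difference 1.73 ± 0.19 SE, adjusted p = 0.000919). The groups were widely separated for both phosphatases. Dusp4, in contrast, was at 27.8 and 24.1 FPKM in EpH4 cells and at 27.5 and 35.6 FPKM in EpRas cells, so the groups overlapped. Its log2 difference was 0.26 (95% interval -0.15 to 0.67, adjusted p = 0.323).

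Spry1 had 15.5 and 13.2 FPKM in the EpH4 libraries and 7.46 and 9.93 FPKM in the EpRas libraries. The groups were separate and Spry1 was 1.65-fold lower in EpRas cells (log2 difference -0.67, adjusted p = 0.0402). Spred1 (chr2:117121374-117182279) was at 6.08 and 4.82 FPKM and at 12.7 and 8.95 FPKM, a ratio of 1.99 (log2 difference 0.86, adjusted p = 0.0464). The gene models of Spred1 and Spred2 also end short of the annotated genes. Spry2 was at 5.63 and 5.05 FPKM and at 10.4 and 9.48 FPKM, a ratio of 1.86 that missed the threshold (adjusted p = 0.0799). Spred2 (chr11:19924375-20024026) was at 20.8 and 17.9 FPKM and at 25.5 and 24.4 FPKM, with a log2 difference of 0.35 (95% interval -0.14 to 0.85, adjusted p = 0.278). Etv4 had a ratio of 1.64 (adjusted p = 0.0218) and Etv5 one of 2.06 (adjusted p = 0.00548), and neither gene's groups overlapped.

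Under all 16 alternative settings, Dusp4, Dusp6 and Spry1 passed the threshold without TGF-β, and Dusp5 and Dusp6 did so with TGF-β. The other calls were less firm, and Dusp5 without TGF-β passed in 9 of 16 settings (adjusted p up to 0.193). Etv4 passed in 12 of 16 settings in each comparison, and Etv5 in 11 of 16 without and 15 of 16 with TGF-β. Without TGF-β, 3 genes were called when either untreated EpRas library was left out, and with TGF-β, 2 were called without the first EpH4 library, 3 without the second and 3 without the first EpRas library. Spred1 with TGF-β passed in 4 of 16 settings and Spry1 with TGF-β in 7 of 16.

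**Figure D2:**
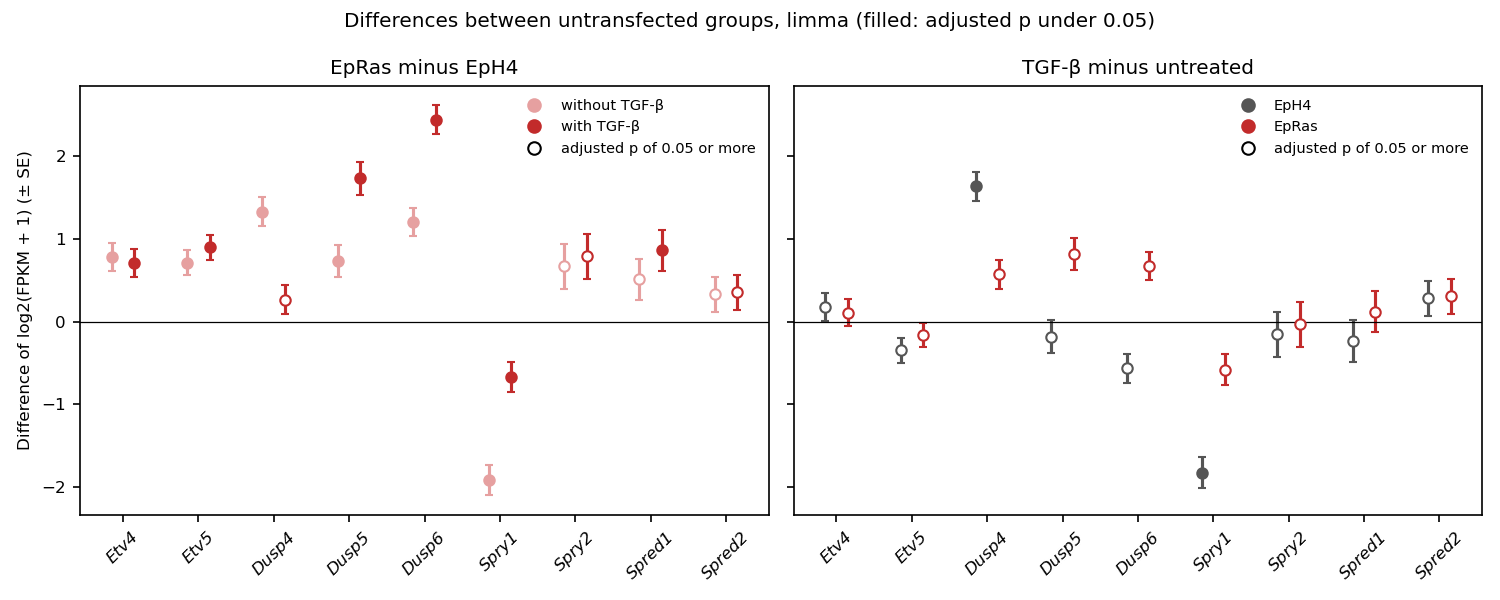
Differences of log2(FPKM + 1) ± SE from limma for the 9 genes tested, between the lines (left) and between TGF-β and untreated cells (right), with filled points for an adjusted p under 0.05. Dusp6 has the largest difference between the lines with TGF-β (2.44), Spry1 is negative in all 4 comparisons, and in the right panel only Dusp4 and Spry1 in EpH4 cells are filled.

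The effect of TGF-β was then examined within each line. In EpH4 cells, Dusp4 rose and Spry1 fell, and the other 7 genes tested did not pass the threshold, against 6.48% higher and 2.91% lower over all genes tested. Dusp4 went from 7.96 and 7.39 FPKM to 27.8 and 24.1 FPKM, a ratio of 3.38 (log2 difference 1.63 ± 0.17 SE, adjusted p = 0.00149). Spry1 went from 53.0 and 53.1 FPKM to 15.5 and 13.2 FPKM and was 3.71-fold lower (log2 difference -1.82 ± 0.18 SE, adjusted p = 0.00111). Neither gene's groups overlapped, and both passed under all 16 alternatives. The comparisons within and between lines share libraries, so their values are not independent. The level of Spry1 in EpH4 cells with TGF-β (14.3 ± 1.62 FPKM, SD, n = 2) was near that in untreated EpRas cells (13.4 ± 1.59 FPKM, SD, n = 2). The sum of the fibroblast markers rose in the same libraries, with 222 and 247 FPKM after TGF-β against 22.7 and 26.8 FPKM before. Most of this sum was Col1a1, at 200 and 224 FPKM after TGF-β against 18.7 and 21.25 FPKM before, and Dcn and Lum were at 0. The epithelial markers given above moved as well. The part of these markers in the result was not tested.

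Dusp6 was lower in both EpH4 libraries with TGF-β than in both without, at 5.36 and 6.11 against 8.66 and 9.24 FPKM. The difference did not pass the threshold (log2 difference -0.56, 95% interval -0.97 to -0.16, adjusted p = 0.0942). Etv5 was at 4.30 and 4.42 FPKM with TGF-β against 5.46 and 6.21 FPKM without (adjusted p = 0.214). For Dusp5 the log2 difference was -0.18 (95% interval -0.64 to 0.28), with libraries that overlapped. The log2 differences of Etv4 (0.17), Spred1 (-0.23), Spred2 (0.28) and Spry2 (-0.15) were also within overlapping libraries. Spry4 had 4 and 1 reads without TGF-β and was listed at 0 with it.

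In EpRas cells, 0 of the 9 genes passed the threshold in limma under TGF-β, and 4 had an unadjusted p under 0.05 (Dusp4, Dusp5, Dusp6 and Spry1). Over all genes tested, 1.9% were higher and 1.92% lower. Each of the 3 phosphatases was higher in both TGF-β libraries than in both untreated libraries. Dusp5 had 33.1 and 36.7 FPKM before against 54.9 and 69.9 FPKM after treatment (ratio 1.79, log2 difference 0.81, 95% interval 0.35 to 1.27, adjusted p = 0.0793). Dusp6 went from 19.9 and 24.0 to 39.1 and 32.0 FPKM (ratio 1.62, adjusted p = 0.0969), and Dusp4 from 20.0 and 21.5 to 27.5 and 35.6 FPKM (ratio 1.52, adjusted p = 0.158). Spry1 had 14.5 and 12.3 FPKM before against 7.46 and 9.93 FPKM after treatment (log2 difference -0.58, adjusted p = 0.174). Every one of these adjusted p-values stayed above the threshold under the 16 alternatives, with the lowest at 0.0621 for Dusp5. The remaining genes were closer to 0 on the log2 scale, with 0.11 for Etv4, -0.16 for Etv5, 0.12 for Spred1, 0.31 for Spred2 and -0.03 for Spry2. Spry4 had 17 and 18 reads before and 23 and 17 reads after treatment.

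The difference between the TGF-β effects of the lines was tested as an interaction, in which 0 of the 9 genes passed in limma and 4 had an unadjusted p under 0.05 (Dusp4, Dusp5, Dusp6 and Spry1). Over all genes, 0.176% had a higher effect in EpRas cells and 0.626% a lower one. For Dusp6 the effect in EpRas cells exceeded that in EpH4 cells by 1.23 (95% interval 0.66 to 1.81, adjusted p = 0.0919), with both TGF-β libraries below the untreated ones in EpH4 cells and above them in EpRas cells. The value was 1.24 for Spry1 (adjusted p = 0.115), 0.99 for Dusp5 (adjusted p = 0.241) and -1.06 for Dusp4 (adjusted p = 0.159). The other values were -0.07 for Etv4, 0.18 for Etv5, 0.35 for Spred1, 0.03 for Spred2 and 0.12 for Spry2. With 5 FPKM added before the logarithm, Spry1 passed at 1.16 (adjusted p = 0.0492), and its adjusted p ranged up to 0.464 over the alternatives.

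Other genes of the pathway were taken from lists of names, and their counts stand against 8.45% higher and 9.11% lower over all genes tested without TGF-β, and 8.92% and 12.3% with TGF-β. Among 11 further Dusp, Sprouty, Spred and Etv relatives, 6 were tested, and without TGF-β Dusp1, a nuclear phosphatase of stress kinases and ERK, was higher in EpRas cells (log2 difference 1.41) and Dusp16 was lower (-1.06). With TGF-β, Dusp1 was again higher (1.71) and Dusp7 lower (-0.58). Of 16 genes of the ERK cascade, 13 were tested and 0 passed between the lines without TGF-β by limma (4 at an unadjusted p under 0.05). With TGF-β, Rasa1 was higher (0.83), and Araf (-0.83) and Map2k1 (-0.69) were lower. Of 16 other ERK-induced genes, 14 were tested, and 2 were higher in EpRas cells without TGF-β, namely Plaur, the urokinase receptor (1.05), and the EGF-family ligand Hbegf (1.04). With TGF-β, 6 were higher and 0 lower, of which Fosl1 (3.46), Hbegf (1.38) and Plaur (1.14) had the largest differences. The Fosl1 libraries were spread from 29.3 to 217 FPKM in EpRas cells with TGF-β.

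Within the lines, TGF-β raised 4 of 5 TGF-β-induced genes tested in EpH4 cells and 3 of 5 in EpRas cells. Pmepa1, a target of TGF-β signaling, rose by 2.06 in EpH4 and by 1.17 in EpRas cells on the log2 scale, so the treatment was visible in both lines. Of the other ERK-induced genes, 1 of 14 rose in EpH4 cells (Hbegf, 1.54), where 6.48% of all genes were higher. In EpRas cells 3 of 14 rose (Hbegf at 1.88, Fos at 1.38 and the EGF-family ligand Areg at 1.34), where 1.9% of all genes were higher. Among the relatives Dusp7 rose in EpH4 cells (0.64), and 0 of 13 genes of the ERK cascade passed by limma in either line (1 in EpH4 and 3 in EpRas cells at an unadjusted p under 0.05). In EpRas cells 0 of 6 relatives passed by limma (2 at an unadjusted p under 0.05). In the interaction 0 genes of these 4 lists passed by limma, with unadjusted p-values under 0.05 for 0 relatives, 1 gene of the cascade, 2 other ERK-induced genes and 3 TGF-β-induced genes.

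The effect of lowering Etv4 and Etv5 was examined in EpRas cells. With 1 library per condition there is no replicate check, so a gene was called where both pairs differed from siNC by at least 1.5-fold in the same direction on the log2(FPKM + 1) scale. Reads recovered from the FPKM values gave 95% intervals, which cover counting error only. Both pairs are compared with the same siNC library, so its error enters both ratios. The targets check the labels. Etv4 stood at 20.2% of siNC with pair 1 and 48.5% with pair 2 without TGF-β, and Etv5 at 18.3% and 14.2%. With TGF-β, Etv4 was at 19.6% and 29.4%, and Etv5 at 23.2% and 22.5%. Pair 1 therefore left less Etv4 than pair 2 under both conditions, with intervals that did not overlap, whereas the intervals of Etv5 overlapped.

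Without TGF-β, 1 of the 7 other genes tested was lower with both pairs (Dusp4) and 1 was higher (Spry1), against 7.41% lower and 6.74% higher over the 9094 genes tested. With TGF-β, 2 were lower (Dusp4 and Dusp6) and 0 higher, against 6.87% and 5.65%. Requiring a 2-fold change in both pairs on the log2(FPKM + 1) scale left Etv4 and Etv5 under each condition. On FPKM itself, however, Dusp4 without TGF-β was 2.04-fold lower with each pair. Cell type markers also differed between these libraries. The 10 epithelial markers summed to 3255, 3702 and 3560 FPKM with siNC, pair 1 and pair 2 without TGF-β. With TGF-β the sums were 3743, 5005 and 4469 FPKM. Among them, members differed without TGF-β. Krt14 had 109, 237 and 365 FPKM, whereas Epcam had 133, 112 and 111 FPKM and Krt8 had 1298, 1240 and 1083 FPKM. Fibroblast markers are given below with Spry1. The part of these markers in the siRNA results was not tested.

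Dusp4 gave the most even response. Without TGF-β its 34.6 FPKM under siNC compared with 17 FPKM under each pair, a ratio of 0.49 in both. With TGF-β the siNC library had 56.7 FPKM, and the pairs had 32.5 and 29.4 FPKM, which are 57.3% and 51.8% of it. Untransfected EpRas cells, from the separately normalized table, had 20.0 and 21.5 FPKM without and 27.5 and 35.6 FPKM with TGF-β. The siNC libraries thus stood above the untransfected level of Dusp4 and the siRNA pairs near it, and the part of the siNC level in the result was not tested. All 4 siRNA libraries were lower than the siNC library of the same treatment, and the highest upper bound of the intervals was 0.625. Over the 6 libraries, a secondary model with terms for the siRNAs and TGF-β gave a log2 difference of -0.92 (adjusted p = 0.0391), where the spread comes from unlike conditions and not from replicates. It passed in 2 of 6 alternatives, and without pair 1 or pair 2 the difference was -0.96 and -0.89, with adjusted p-values of 0.183 and 0.108.

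Without TGF-β, Dusp6 had 26.8 FPKM under siNC, and the pairs had 12.8 and 19.4 FPKM. Pair 1 left 47.6% of the siNC level and pair 2 left 72.4%, which missed the 1.5-fold limit. Their intervals, 0.41 to 0.55 and 0.64 to 0.82, did not overlap. With TGF-β, Dusp6 was at 28.5, 14.6 and 16.4 FPKM, or 51.4% and 57.8%. All 4 siRNA libraries were thus below siNC (secondary model -0.78, 95% interval -1.27 to -0.30, adjusted p = 0.102). The untransfected libraries listed 19.9 and 24.0 FPKM of Dusp6 without TGF-β, near siNC, and 39.1 and 32.0 FPKM with it, above siNC.

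Dusp5 did not show a shared direction. Without TGF-β its levels under siNC, pair 1 and pair 2 were 35.9, 30.4 and 44.3 FPKM, and with TGF-β they were 75.0, 46.2 and 62.2 FPKM. Pair 2 was above siNC without TGF-β (ratio 1.23, interval 1.05 to 1.45) and below it with TGF-β (0.83, interval 0.74 to 0.92). Pair 1 with TGF-β was the lowest relative to siNC, with 61.5%.

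Spry1 was the only one of the 10 genes that was higher than siNC with both pairs under both conditions. Without TGF-β its 9.76 FPKM under siNC compared with 36.1 FPKM under pair 1 and 19.1 FPKM under pair 2, ratios of 3.69 (interval 3.12 to 4.39) and 1.96 (interval 1.63 to 2.36). With TGF-β its levels were 7.94, 14.6 and 10.5 FPKM, ratios of 1.84 and 1.32. Pair 2 with TGF-β was below the 1.5-fold limit. The untransfected EpRas libraries listed 14.5 and 12.3 FPKM of Spry1 without TGF-β and 7.46 and 9.93 FPKM with it. The secondary model gave a difference of 0.96 (95% interval 0.19 to 1.73, adjusted p = 0.153). Fibroblast markers moved in the same libraries. Their sum was 5.50, 25.7 and 16.6 FPKM with siNC, pair 1 and pair 2 without TGF-β. With TGF-β it was 11.7, 43.9 and 22.4 FPKM. Untransfected EpRas cells had 12.3 and 13.6 FPKM without TGF-β, above siNC, and 8.42 and 11.1 FPKM with it, below siNC. Members differed. Col1a1, a large part of the pair 1 sums, had 0.629, 14.3 and 2.07 FPKM without TGF-β and 2.44, 27.7 and 5.40 FPKM with it. In untransfected EpRas cells it had between 1.57 and 2.78 FPKM. Pdgfrb without TGF-β had 1.09, 5.25 and 9.35 FPKM, and 7.14 and 8.11 FPKM untransfected. Pdgfra with TGF-β was lower with the pairs, at 6.79, 2.33 and 3.86 FPKM. The part of these markers in the result was not tested.

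Of the remaining inhibitors, Spry2, Spred1 and Spred2 were not called with both pairs, and Spry4 was below the level for testing. Spry2 had 11.1, 7.83 and 11.1 FPKM in untreated cells and 11.8, 5.69 and 8.72 FPKM after TGF-β, where pair 1 reached 48.4% of siNC and pair 2 reached 74.0%. Spry4 had 57 reads with siNC, 48 with pair 1 and 40 with pair 2 without TGF-β, which corresponded to 62.0% and 55.2% of siNC after correction for depth. With TGF-β, Spry4 had 140, 92 and 69 reads, or 82.9% and 69.4%, and the interval for pair 1 included 1. On FPKM itself both pairs without TGF-β were more than 1.5-fold lower than siNC, by 1.61-fold and 1.81-fold, whereas on the log2(FPKM + 1) scale the differences were -0.40 and -0.48. Spred1 lay between 82.4% and 129% of siNC and Spred2 between 70.3% and 111%, with values on both sides of siNC for each.

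**Figure D3:**
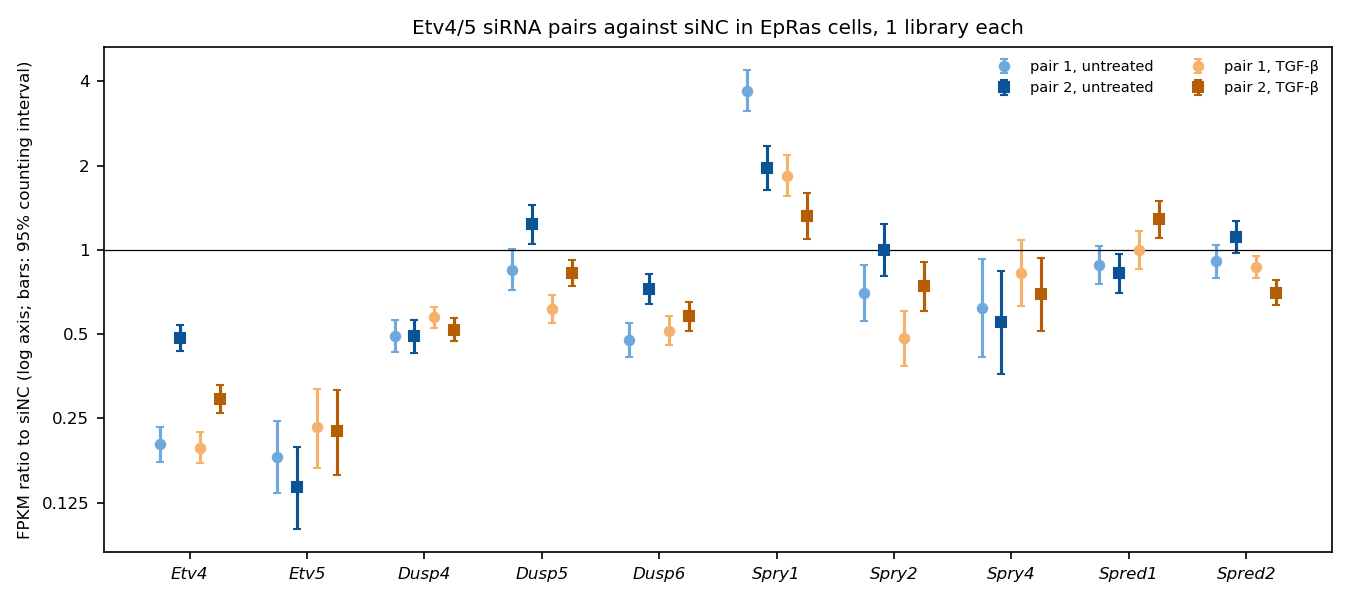
Ratio of the FPKM with each siRNA pair to that with siNC, without and with TGF-β, on a log axis with 95% counting intervals (1 library per condition). The 4 points of Dusp4 lie between 0.49 and 0.573 and those of Dusp6 between 0.476 and 0.724, whereas the 4 points of Spry1 lie between 1.32 and 3.69.

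The same libraries show the TGF-β effect in transfected EpRas cells. Dusp4 was higher with TGF-β in all 3 arms, by 1.64-fold with siNC, 1.92-fold with pair 1 and 1.73-fold with pair 2. In a secondary model with the 3 arms as blocks its log2 difference was 0.78 (adjusted p = 0.0409), 1 of 9 genes tested, against 2.62% higher and 1.55% lower over all genes. Dusp5 was 2.09-fold, 1.52-fold and 1.41-fold its untreated level (log2 difference 0.70, adjusted p = 0.0849). Dusp6 was 1.06-fold with siNC (interval 0.95 to 1.18), 1.15-fold with pair 1 and 0.85-fold with pair 2 (log2 difference 0.01, 95% interval -0.36 to 0.38). In untransfected EpRas cells, which were quantified in a separate table, the Dusp6 ratio was 1.62. Spry1 had TGF-β ratios of 0.814 with siNC, 0.404 with pair 1 and 0.548 with pair 2 (log2 difference -0.78, adjusted p = 0.12), so the 2 siRNA arms were further below their untreated libraries than siNC was. Spry4 had ratios of 1.41, 1.89 and 1.77, and Spred2 had ratios of 1.59, 1.52 and 1.01. Those of Spry2 (1.06, 0.727 and 0.785), Spred1 (0.721, 0.820 and 1.13) and Etv4 (1.12, 1.09 and 0.677) lay on both sides of 1, and those of Etv5 were 0.604, 0.768 and 0.957. Among the other lists 5 of 5 TGF-β-induced genes rose, along with Hbegf, Dusp8 and Dusp16. The model lost its call for Dusp4 in 4 of 6 alternatives, among them those in which pair 1 or pair 2 was left out (adjusted p = 0.278 and 0.198).

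**Figure D4:**
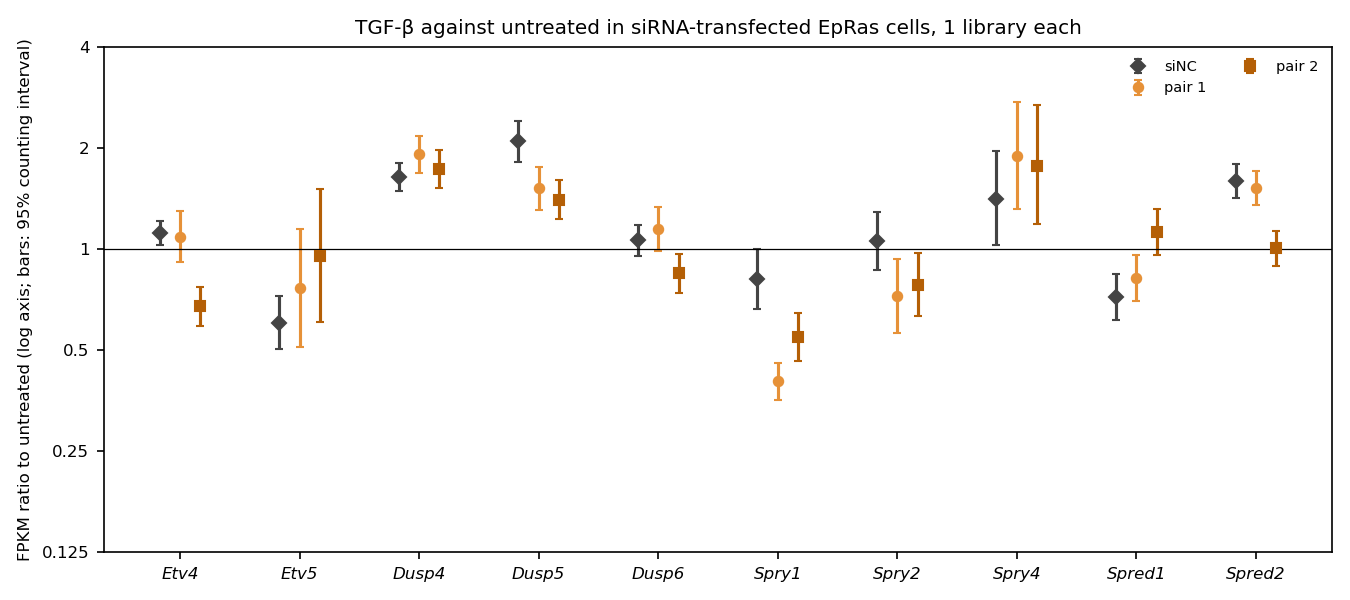
Ratio of the FPKM with TGF-β to that without it in EpRas cells transfected with siNC, pair 1 or pair 2, on a log axis with 95% counting intervals (1 library per condition). Dusp4 and Dusp5 lie above 1 in all 3 arms, Spry1 lies below 1 in all 3, and Dusp6 lies between 0.847 and 1.15.

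In the model of the siRNA effect, Dusp4 and Etv5 were the genes called among the 9, both lower, against 0.77% higher and 1.34% lower over all genes. The log2 difference was -1.77 for Etv5 (adjusted p = 0.0205) and -1.80 for Etv4 (adjusted p = 0.0606). From the other lists, 5 of 14 further ERK-induced genes were at least 1.5-fold lower with both pairs without TGF-β (Ier3, Plaur, Hbegf, Ereg and Emp1) and 0 higher, all 5 being named here after their values were seen, against 7.41% lower and 6.74% higher over all genes by this rule. With TGF-β, 5 of 14 were lower (Fos, Ier3, Plaur, Areg and Ereg, named likewise) and 0 higher, against 6.87% and 5.65%. In the model, Ier3 (-1.45, adjusted p = 0.0234) and Plaur (-0.95, adjusted p = 0.0448) fell. Of 7 relatives tested, Dusp10, a phosphatase of stress-activated kinases, fell (-1.57, adjusted p = 0.0284), and Dusp1 was also lower with both pairs without TGF-β. For several of these genes siNC stood apart from untransfected EpRas cells of the separately normalized table. Dusp10 had 12.01 and 18.4 FPKM under siNC without and with TGF-β, between 4.12 and 6.80 FPKM in the untransfected libraries and at most 5.38 FPKM under the pairs. Ier3 had 536 and 556 FPKM under siNC, between 233 and 376 FPKM untransfected and between 164 and 234 FPKM under the pairs. Ereg had 13.4 and 11.4 FPKM under siNC and at most 5.30 FPKM untransfected. Fos with TGF-β had 16.8 FPKM under siNC, 3.77 and 4.59 FPKM untransfected and 3.61 and 7.54 FPKM under the pairs. Without TGF-β, Emp1 had 551 FPKM under siNC and 329 and 345 FPKM untransfected. Plaur had 187 FPKM under siNC and 182 and 158 FPKM untransfected without TGF-β, and 291 against 204 and 260 FPKM with it. For Hbegf, Areg and Dusp1, siNC lay nearer to the untransfected libraries. Without TGF-β, Hbegf had 35.4 FPKM under siNC and 42.0 and 31.5 FPKM untransfected, and Dusp1 had 46.5 against 35.8 and 40.8 FPKM. With TGF-β, Areg had 45.5 FPKM under siNC and 53.7 and 55.3 FPKM untransfected. The part of the siNC level in these results was not tested. Of 13 genes of the ERK cascade and 5 TGF-β-induced genes, 0 passed the fold limit under either condition. Hras was at 149 FPKM with siNC and at 114 and 101 FPKM with the pairs without TGF-β.

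Genes whose pattern over the 8 untransfected libraries was most like that of a member were listed by the root mean square difference of centred log2 values. For Etv4 these included Invs (0.10) and Ltbp1 (0.10). For Etv5 they were Pldn (0.07), Adck5 (0.08) and E2f8 (0.09). For Dusp6 they were Fut8 (0.27), Evi2a (0.28) and Gjc1 (0.29). The values were not scaled to the range of each gene, and Dusp6 differed more between groups than Etv4 and Etv5. The distances therefore cannot be compared between these genes.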

How the data were processed

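RNA-seq was performed on 8 untransfected and 6 siRNA-transfected libraries. The authors isolated mRNA, prepared directional libraries for the Ion Proton, aligned reads to mm10 with TopHat2 2.0.11 and Bowtie2 2.2.2.2, and quantified genes with Cuffdiff (Cufflinks 2.2.0). The deposited values are FPKM in 2 tables from separate runs, so tests stayed within a table. The authors' FPKM interval columns were not used. FPKM is relative to the size of the library, so a rise of abundant genes can lower the others. How the libraries were scaled in the authors' runs was not tested. Read totals are not given. For all 10 genes the FPKM come in whole steps of 1 read (largest distance from a whole number 0.00737 reads), from which reads and relative depth were recovered.

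Genes reaching 5 FPKM in a table were tested. limma 3.58.1 in R 4.3.3 was fitted to log2(FPKM + 1), which understates the change of low genes, with two-sided p-values, Benjamini-Hochberg adjustment across the tested genes of the table and a threshold of 0.05. Both libraries of an untransfected group are biological replicates per the study's text, and the labels do not say whether they are separate cultures, so p-values measure the spread between these libraries. siRNA libraries were compared by fold, with exact binomial intervals (Clopper-Pearson, 95%) and 2 secondary additive limma models. Calculations outside R used Python 3.11.15, numpy 2.4.6, pandas 2.3.3, scipy 1.17.1 and matplotlib 3.10.9. The fits were tested on simulated data. Alternatives were other added values, no filter, other scalings, a trend, only the groups compared, a replicate block, each library or siRNA pair left out, and other fold limits.

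The 10 genes, the gene lists and the comparisons were chosen with earlier results of these data known. The rule was to name all 10 genes, with Spry4 given by its reads, and for other lists at most 3 called genes by the size of their difference, and Hras. Where 5 genes of a list passed the fold limit with the siRNAs, all were named after their values were seen. The genes most like Etv4, Etv5 and Dusp6 are the 3 with the smallest difference of pattern. Some genes that these rules name are not reported here. Positions are from GENCODE on mm10.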

Additional observations from a re-analysis of the deposited data

Results flagged for a closer look

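Dusp6 was noted because its libraries moved in opposite directions with TGF-β in the lines. Both EpH4 libraries with TGF-β (5.36 and 6.11 FPKM) lay below both untreated ones (8.66 and 9.24 FPKM), and both EpRas libraries with TGF-β (39.1 and 32.0 FPKM) lay above both untreated ones (19.9 and 24.0 FPKM). The effect in EpRas cells minus that in EpH4 cells was 1.23 on the log2 scale. The limma test of this difference gave an adjusted p of 0.0919, and values from 0.0632 to 0.461 under the 15 alternatives, so it did not pass the threshold in any of them.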

How the results depend on the processing

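Over 63 results of single genes and 819 alternative values, 744 kept their direction and side of the threshold, 51 no longer passed, 7 newly passed and 17 changed sign, and 0 of these 17 passed the threshold. Leaving out 1 library at a time gave 3 to 6 called genes between the lines without TGF-β and 2 to 6 with TGF-β, where fewer samples enter the fit. With 5 FPKM added, 1 gene (Spry1) passed in the interaction. In the siRNA model, 1 gene passed with 0.1 FPKM added, 1 with no filter and 0 without pair 1. In the TGF-β model of the siRNA libraries, 0 passed with 0.1 FPKM added, with no filter, without pair 1 or without pair 2. A limit of 2-fold in both pairs left 2 genes under each condition, and pair 1 alone gave 7 with TGF-β. The cause was not tested.

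Sign changes were found for differences near 0. Over the libraries left out, the log2 difference with TGF-β in EpH4 cells ran from -0.38 to 0.018 for Dusp5 and from -0.58 to 0.27 for Spry2. In EpRas cells it ran from -0.11 to 0.35 for Spred1 and from -0.15 to 0.083 for Spry2. The interaction ran from -0.23 to 0.092 for Etv4, from -0.20 to 0.25 for Spred2 and from -0.30 to 0.55 for Spry2. Without pair 1 the siRNA difference was 0.015 for Dusp5 and 0.037 for Spred1, and the TGF-β difference was -0.072 for Dusp6. Without pair 2 the TGF-β difference was 0.14 for Etv4.

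Same-numbered replicates did not shift together across the groups, since the correlation of replicate differences lay between -0.347 and 0.0785. These values cannot show whether libraries were prepared in shared batches, because libraries with unlike numbers may belong together. With the replicate number as a block, 5 genes were called without TGF-β and 4 with TGF-β between the lines (Dusp5 lost without it, Spred1 and Spry1 with it), 2 with TGF-β in EpH4 cells and 0 in EpRas cells and in the interaction. Precision is limited by 2 libraries per group, and by depth for Spry4.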
